A study of Oryctolagus cuniculus with 9 samples.

Results

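Troponin and tropomyosin form the calcium switch of the muscle thin filament, and their genes come in forms used by fast fibres and by slow fibres. The 9 symbols examined were TNNC1, TNNI1, TNNT1, TNNC2, TNNI2, TNNT3, TPM1, TPM2 and TPM3, taken by gene name from a table of 29076 genes measured by RNA-seq in rabbit diaphragm. Rows of that name were used for 5 of the 9, namely TNNC1, TNNI1, TNNT1, TPM1 and TPM2. TNNC2, TNNI2, TNNT3 and TPM3 had no row under these names and were not analysed here by name. The fast troponins were therefore not set against the slow ones. The row named TNNT1 carried the gene ID of TNNT3, as described below. A row with no symbol carried the gene ID of TPM3, and it is described separately as TPM3 by gene ID.

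The tissue was bulk diaphragm of rabbits, with 3 libraries in each of 3 groups. The paper describes New Zealand white rabbits, all anaesthetized, for the CON and MV groups and does not report the MV_PEEP group. The MV_PEEP group was mechanically ventilated with positive end-expiratory pressure (PEEP), labelled 8 without a unit, and its duration is not given in the sources used here. The MV group was ventilated for 48 h in a volume assist-control mode with a PEEP of 0 cmH2O, and the CON group breathed spontaneously. The age of the rabbits and whether each library came from another rabbit are not given in the sources used here, so the p-values below measure the spread between these libraries, which may be partly technical.

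In striated muscle, calcium binds troponin C, which releases the hold of the inhibitory subunit troponin I on actin. Troponin T ties the complex to tropomyosin, a coiled coil that lies along the actin filament and moves aside to expose the sites where myosin binds. TNNC1, TNNI1 and TNNT1 are the slow skeletal forms (TNNC1 also serves the heart), TPM3 is the tropomyosin typical of slow fibres, TPM1 that of fast fibres, and TPM2 occurs in both. TPM1, TPM2 and TPM3 also give rise to forms used outside skeletal muscle, including smooth muscle.

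The libraries held 21646702 to 43697018 counts. MV_PEEP replicate 3 stood apart in adipocyte and fibroblast markers. Its summed FPKM (fragment counts scaled for transcript length and library size) over the adipocyte markers was 7502, against 205 to 712 in the other 8 libraries, and its fibroblast marker sum was 3942, against 135 to 1543. It also had the lowest summed FPKM of the 5 skeletal muscle markers, 17835, against 19876 to 54833 elsewhere. Those markers summed to 17835 to 30184 in MV_PEEP and 19876 to 35312 in MV, both below the 39959 to 54833 of CON. ACTA1 and CKM (muscle creatine kinase) make up most of that sum. CKM overlapped between CON and MV, at 8893 FPKM in MV replicate 3 against 8010 FPKM in CON replicate 3. In MV_PEEP CKM lay wholly below CON, as for 2.58% of all genes tested. Of the other markers, MB (myoglobin), TTN (titin) and DES (desmin) overlapped between CON and either ventilated group, and DES gave a log2 fold change of 0.71 in MV against CON and 0.57 in MV_PEEP against CON. MV replicate 1 had the lowest skeletal muscle marker sum of MV (19876). Its neutrophil marker sum was 1026 FPKM, against 2.96 to 283 in the other 8 libraries. The part of these marker levels in the results was not tested, and in bulk tissue fewer fibres and less RNA per fibre cannot be told apart. The MV_PEEP fold changes of the 5 named genes are given with and without MV_PEEP replicate 3. Those of single genes on the lists below are given only with that library.

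**Figure D1:**
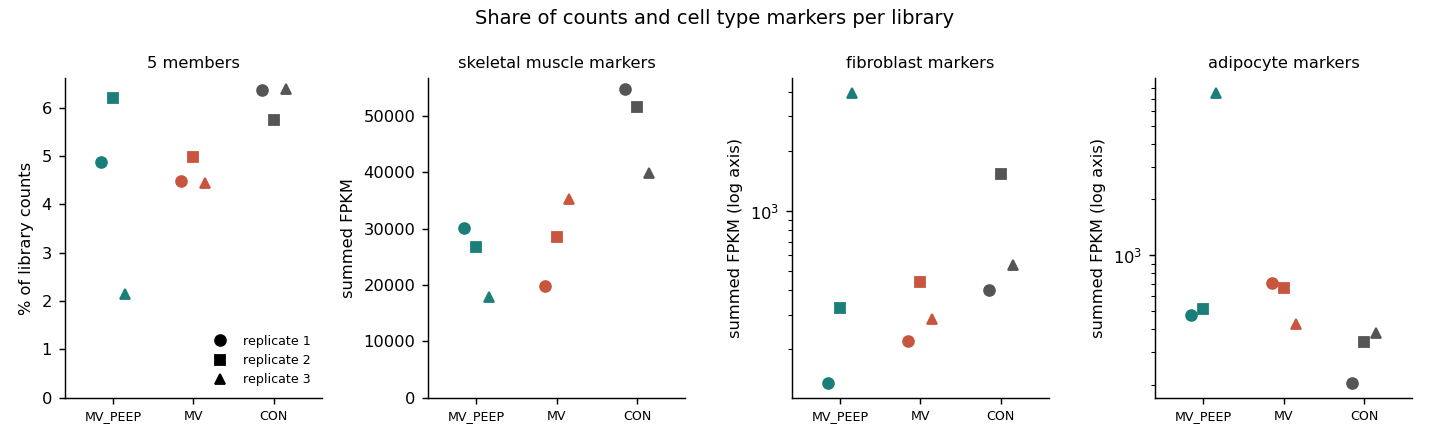
Percent of all counts in a library that fell on the 5 named genes, and summed FPKM of the skeletal muscle, fibroblast and adipocyte marker lists (the last 2 on a log axis), for each of the 9 libraries. MV_PEEP replicate 3 is the lowest in the first 2 panels (2.14% and 17835 FPKM) and the highest in the other 2 (3942 and 7502 FPKM).

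All 5 named genes were among the most abundant transcripts. By mean FPKM over the 9 libraries, TPM2 ranked 2, TNNC1 ranked 3, the row named TNNT1 ranked 8, TNNI1 ranked 23 and TPM1 ranked 71 of 29076, with skeletal actin ACTA1 at rank 1. Together they took 4.88%, 6.21% and 2.14% of all counts in MV_PEEP replicates 1, 2 and 3, against 4.48%, 4.97% and 4.45% in MV and 6.37%, 5.73% and 6.39% in CON. The 3 MV libraries lay below the 3 CON libraries in this share, while MV_PEEP overlapped CON.

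Compared with CON, all 5 had lower fitted levels in MV and in MV_PEEP, but none passed the test. The smallest adjusted p over the 15 tests of 5 genes in 3 comparisons was 0.786 (edgeR's quasi-likelihood test with Benjamini-Hochberg adjustment over the 12981 genes tested). The share of genes with a log2 fold change below 0 was 48.6% of all genes tested in MV against CON and 45.4% in MV_PEEP against CON. These comparisons share their CON libraries, so they are not separate evidence. With this test no gene of any kind had an adjusted p under 0.05 in any of the 3 comparisons (0% called in each), while the counts at an unadjusted p under 0.05 were 904 in MV against CON, 811 in MV_PEEP against CON and 457 in MV_PEEP against MV. DESeq2 called 154, 98 and 15 genes in the same order and limma on log2(FPKM + 1) called 2, 2 and 1, with none of the 5 genes among those of either tool.

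**Figure D2:**
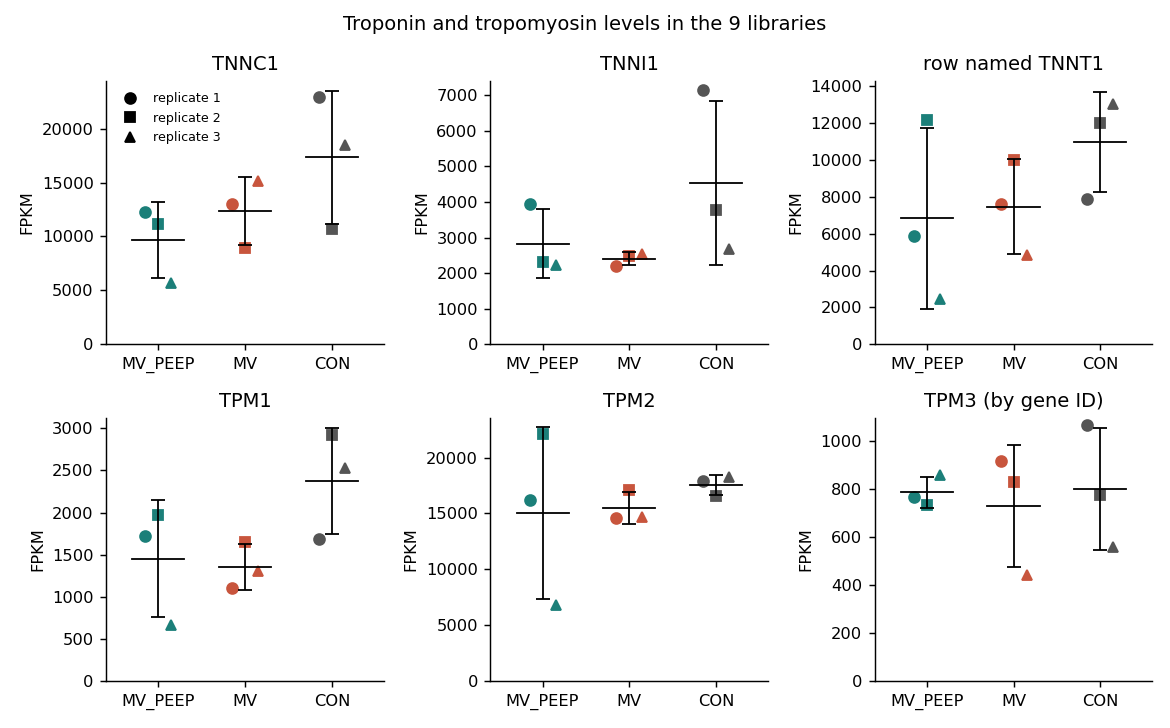
FPKM of the 5 named genes and of TPM3 by gene ID in each library, with bars for the mean and SD of each group (n = 3). The MV points lie wholly below the CON points for TNNI1 and TPM1, as for 4.91% of all genes tested. The lowest point of TNNC1, TNNT1, TPM1 and TPM2 is MV_PEEP replicate 3.

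TNNC1 encodes the calcium-binding subunit of slow skeletal and cardiac troponin. It is annotated on OryCun2.0 chromosome 9, from 19523494 to 19526219 on the minus strand. Its level was 12255, 11187 and 5661 FPKM in MV_PEEP replicates 1, 2 and 3, against 13037, 8956 and 15139 FPKM in MV and 22908, 10695 and 18447 FPKM in CON. The groups overlapped, since CON replicate 2 lay below libraries of both ventilated groups. The log2 fold change was −0.61 ± 0.64 (SE) in MV against CON, with a 95% interval of −2.02 to 0.81 (edgeR adjusted p = 0.902). In MV_PEEP against CON it was −1.14 ± 0.64 (edgeR adjusted p = 0.890), and −0.75 without MV_PEEP replicate 3. The difference of MV against CON was −0.27 without CON replicate 1, −0.38 without MV replicate 2 and −0.96 without either CON replicate 2 or MV replicate 3.

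TNNI1 encodes slow skeletal troponin I, the subunit that holds actin in the off state. The gene lies on chromosome 16 from 70101257 to 70112617 (plus strand), 26.2 kb before TNNT2, which encodes cardiac troponin T. The MV_PEEP libraries had 3941, 2303 and 2242 FPKM, against 2201, 2474 and 2542 FPKM in MV and 7139, 3772 and 2691 FPKM in CON. All 3 MV libraries lay below all 3 CON libraries on this scale, a pattern that 4.91% of all genes tested shared in MV against CON, and the exact 2-sided permutation p was 0.1, the smallest that 3 libraries against 3 allow. On counts scaled by TMM factors (edgeR's correction for library composition) the groups overlapped. The MV mean was 2406 ± 180 FPKM and the CON mean 4534 ± 2320 FPKM (SD, n = 3 each), so the 3 MV libraries were close together while those of CON were spread widely. The log2 fold change of −1.04 ± 0.58 (SE; edgeR adjusted p = 0.786) in MV against CON rested in good part on CON replicate 1, without which it was −0.41. MV_PEEP against CON gave −0.996 ± 0.58 (edgeR adjusted p = 0.905). It gave −0.33 without CON replicate 1, −1.50 without MV_PEEP replicate 1 and −0.70 without MV_PEEP replicate 3.

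The row named TNNT1 needs care, because its name and its gene ID disagree. The ID (103347435) belongs to TNNT3, fast skeletal troponin T, in the RefSeq gene table of assembly mOryCun1.1, while the deposited name is that of slow troponin T. Its model covers 3577 bases of an unplaced scaffold (790 to 4366, plus strand). Whether it counts slow or fast troponin T, or reads of both, was not settled. In MV_PEEP the row had 5852, 12174 and 2481 FPKM, against 7622, 9977 and 4820 FPKM in MV and 7892, 12005 and 13038 FPKM in CON. The FPKM of the groups overlapped. On TMM-scaled CPM (counts relative to library size) the MV libraries, at 5213, 6030 and 8362 from low to high, all lay below the CON libraries, at 8622, 9701 and 12959, as did 7.73% of all genes tested. Its log2 fold change was −0.67 ± 0.65 (SE; edgeR adjusted p = 0.893) in MV against CON and −0.92 ± 0.65 (edgeR adjusted p = 0.941) in MV_PEEP against CON. The second value was −0.44 without MV_PEEP replicate 3 and −1.61 without MV_PEEP replicate 2.

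TPM1 encodes alpha-tropomyosin and is annotated on chromosome 17 from 9208797 to 9235205 (minus strand), with 17 transcripts. Its FPKM was 1721, 1968 and 664 in MV_PEEP, against 1108, 1649 and 1307 in MV and 1684, 2922 and 2525 in CON. The highest MV library lay just below the lowest CON library, so the groups did not overlap, and they did not on TMM-scaled counts either. Of all genes tested, 4.91% lay wholly lower in MV by FPKM and 7.73% on TMM-scaled counts. The TPM1 means were 1355 ± 274 FPKM in MV and 2377 ± 632 FPKM in CON (SD, n = 3 each), with an exact 2-sided permutation p of 0.1. Among the 5 genes TPM1 alone had MV and CON libraries that were separate on both scales. The share of all genes separate on both scales was not counted. The fitted difference was −0.87 ± 0.58 on the log2 scale (95% interval −2.17 to 0.43, edgeR adjusted p = 0.821), and it stayed between −1.01 and −0.68 as each library was left out in turn. Without MV_PEEP replicate 3, a library of neither group, the MV against CON value was again −0.87, edgeR's unadjusted p was 0.0404 and its adjusted p 0.527. MV_PEEP against CON gave −0.92 ± 0.58 (edgeR adjusted p = 0.918). Here too the TMM-scaled groups did not overlap, as for 6.09% of all genes tested in that direction, while the FPKM groups did, and the value was −0.48 without MV_PEEP replicate 3.

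TPM2, which encodes beta-tropomyosin, lies on chromosome 1 from 18242478 to 18250240 (plus strand). Its levels were 16213, 22119 and 6833 FPKM in MV_PEEP, against 14593, 17095 and 14690 FPKM in MV and 17925, 16534 and 18223 FPKM in CON. MV_PEEP held both the highest and the lowest of the 9 libraries. In MV against CON its log2 fold change, −0.29 ± 0.64 (edgeR adjusted p = 0.963), was the smallest of the 5 in size. It was −0.17 without MV replicate 1 and −0.46 without CON replicate 2. In MV_PEEP against CON it was −0.48 ± 0.64 (edgeR adjusted p = 0.985), and −0.03 without MV_PEEP replicate 3 or −0.85 without MV_PEEP replicate 2. All 8 smooth muscle and pericyte markers with a row had a log2 fold change below 0 in MV against CON (median −1.27). Their summed FPKM was 102, 163 and 352 in MV_PEEP replicates 1, 2 and 3, against 56.9 to 181 in MV and 149 to 363 in CON. TPM1 and TPM2 are also smooth muscle genes, and the part of these cells in their levels was not tested.

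The row with the gene ID of TPM3, the slow-fibre tropomyosin, lies on chromosome 13 from 38374330 to 38396637 (plus strand). It starts 120 bases after the end of LOC108177583, a row on the same strand described as a tropomyosin alpha-3 chain-like gene, so reads of a single gene may be divided between them and the level of either is uncertain. TPM3 by gene ID had 769, 733 and 859 FPKM in MV_PEEP, against 920, 832 and 442 FPKM in MV and 1067, 776 and 561 FPKM in CON. In MV_PEEP replicate 3 it had the highest FPKM of its group, but on TMM-scaled counts that library was the lowest of its group (1298, against 1503 and 1794 in the other MV_PEEP libraries). The log2 fold change was −0.30 ± 0.43 (edgeR adjusted p = 0.938) in MV against CON and −0.38 ± 0.43 (edgeR adjusted p = 0.973) in MV_PEEP against CON, and these came to 0.09 and 0.03 when CON replicate 1 was left out. The value in MV against CON was −0.51 without CON replicate 3 and −0.13 without MV replicate 3, and that in MV_PEEP against CON was −0.25 without MV_PEEP replicate 3. LOC108177583 gave −0.73 ± 0.51 and −0.47 ± 0.51 in the same comparisons (edgeR adjusted p = 0.826 and 0.968). Leaving out CON replicate 1 took these values to −0.19 and 0.10, and leaving out CON replicate 3 took them to −1.13 and −0.85.

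**Figure D3:**
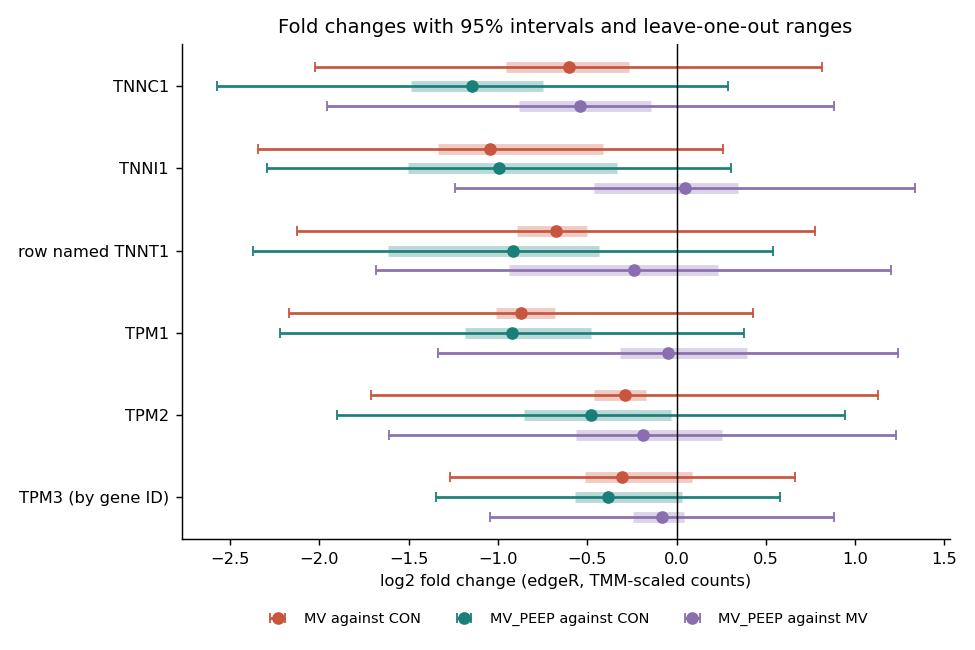
Log2 fold changes from edgeR for the 5 named genes and TPM3 by gene ID in 3 comparisons. Points are the fitted values, thin lines the 95% intervals and pale bars the range when each library is left out in turn. All 18 intervals include 0, and the pale bars of the 5 named genes stay below 0 in both comparisons with CON.

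Between MV_PEEP and MV the differences were small beside their errors. The log2 fold change was −0.54 for TNNC1, 0.05 for TNNI1, −0.24 for the row named TNNT1, −0.05 for TPM1, −0.19 for TPM2 and −0.08 for TPM3 by gene ID, with standard errors of 0.43 to 0.65. No FPKM group lay wholly on either side of the other for these genes, where 1.53% of all genes tested had MV_PEEP wholly below MV and 4.86% wholly above. Of all genes tested, 50% had a value below 0. Without MV_PEEP replicate 3 the values were −0.15 for TNNC1, 0.34 for TNNI1, 0.23 for the row named TNNT1, 0.39 for TPM1 and 0.25 for TPM2, so the direction of 3 of the 5 turned with that library. The 95% interval of TNNI1 ran from −1.24 to 1.33, which spans more than 2-fold either way.

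Ratios of a pair of genes within a library do not depend on its scaling. TNNI1 over TNNC1, both slow troponin subunits, averaged 0.308 ± 0.096 in MV_PEEP, 0.204 ± 0.062 in MV and 0.270 ± 0.110 in CON (SD of FPKM ratios, n = 3 each). The row named TNNT1 over TNNC1 averaged 0.668 in MV_PEEP, 0.672 in MV and 0.725 in CON. It varied more within groups than between them, at 0.438 to 1.09 in MV_PEEP, 0.318 to 1.11 in MV and 0.345 to 1.12 in CON. TPM1 over TPM2 was 0.0974 ± 0.0086 in MV_PEEP, 0.0871 ± 0.0104 in MV and 0.136 ± 0.041 in CON. CON replicate 1, at 0.0939, lay among the ventilated libraries and the other CON libraries, at 0.177 and 0.139, above all of them. TPM1 over TPM3 by gene ID was 2.24, 2.68 and 0.772 in MV_PEEP, against 1.20, 1.98 and 2.96 in MV and 1.58, 3.77 and 4.50 in CON. The mean log2 of this last ratio differed by −0.84 in MV_PEEP minus CON and −0.64 in MV minus CON. The groups overlapped in every one of these ratios.

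**Figure D4:**
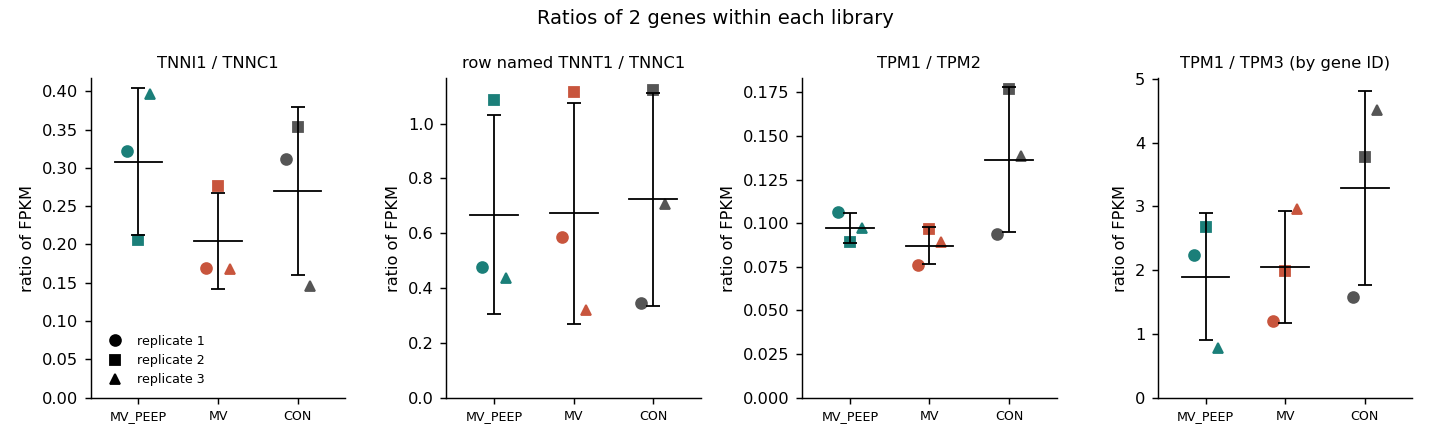
Ratios of FPKM of 2 genes within each library, with bars for the mean and SD of each group (n = 3). All groups overlap, and in the second panel replicate 2 is the highest of each group, at 1.09 in MV_PEEP, 1.11 in MV and 1.12 in CON.

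Other thin filament genes were set beside the 5. Of 14 tested genes on a list of actins, tropomodulins, leiomodins, capping proteins, filament regulators, TNNT2 and TPM4, 8 lay above 0 and 6 lay below it in MV against CON (median log2 fold change 0.20, against 0.02 over all genes tested). The median of the 5 named genes was −0.67. Skeletal actin ACTA1, the core of the filament, had 15125, 17977 and 10741 FPKM in MV_PEEP, against 12138, 19359 and 19715 FPKM in MV and 33472, 36770 and 29785 FPKM in CON. Every ventilated library lay below every CON library, as for 4.91% of all genes tested in MV against CON and 2.58% in MV_PEEP against CON. The log2 fold change was −1.02 in MV against CON (edgeR adjusted p = 0.805) and −1.47 in MV_PEEP against CON (edgeR adjusted p = 0.774). NEB, which encodes the nebulin ruler along the filament, gave −0.19 and −0.38. KLHL40, a stabiliser of nebulin and leiomodin, had 67.2, 28.9 and 22.4 FPKM in MV_PEEP, against 21.0, 81.9 and 89.5 FPKM in MV and 16.9, 18.5 and 11.5 FPKM in CON. Its value of 2.02 in MV against CON had an unadjusted p of 0.0151 (edgeR, adjusted p = 0.567), and 3.77% of all genes tested were higher at an unadjusted p under 0.05. The log2 fold change of cardiac actin ACTC1, 3.08 in MV against CON, came with 830.5 FPKM in MV replicate 2 and 15.6 and 23.7 FPKM in the other MV libraries. ACTC1 had 33.6, 32.1 and 24.1 FPKM in CON, so only MV replicate 2 lay above CON and the other MV libraries lay below it. CAPZB, which caps the end of the filament at the Z-disc, gave −0.64 (edgeR adjusted p = 0.784). In MV_PEEP against CON, 5 of the 14 were above 0 and 9 below (median −0.12), and 8 above and 6 below without MV_PEEP replicate 3.

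Genes of fast and of slow fibres outside the thin filament both had medians below 0 against CON. All 9 tested fast-fibre genes were below 0 in MV against CON (median −0.94), and 2 of them had an unadjusted p under 0.05, where 3.19% of all genes tested were lower at that level. These were CASQ1, which encodes the calcium store protein of the fast sarcoplasmic reticulum (−1.74, edgeR adjusted p = 0.545), and PVALB, which encodes the calcium buffer parvalbumin (−2.40, edgeR adjusted p = 0.567). Fast alpha-actinin ACTN3 gave −1.19, and the fast myosin heavy chains MYH4 and MYH1 gave −1.96 and −0.91. In MV_PEEP against CON 8 of the 9 were below 0 (median −1.08), and 6 of 9 (median −0.60) without MV_PEEP replicate 3.

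Of 7 tested slow-fibre genes, 5 were below 0 in MV against CON (median −0.42). Slow light chain MYL3 had 3092, 1971 and 1666 FPKM in MV_PEEP, against 2016, 2193 and 2576 FPKM in MV and 9717, 4703 and 4463 FPKM in CON, with no overlap between CON and either ventilated group. Of all genes tested, 4.91% lay wholly below CON in MV and 2.58% in MV_PEEP. The log2 fold change of MYL3 was −1.60 in MV against CON and −1.81 in MV_PEEP against CON (edgeR adjusted p = 0.595 and 0.673). The regulatory light chain MYL2 gave −1.30 and −1.92 (edgeR adjusted p = 0.736 and 0.671), the Z-disc gene MYOZ2 −0.67 and −1.18, and the calcium pump gene ATP2A2 −0.42 and −0.04. In MV_PEEP against CON 6 of the 7 were below 0 (median −0.68), 3 of them at an unadjusted p under 0.05 (3.02% of all genes tested were lower at that level), and 6 of 7 (median −0.31) without MV_PEEP replicate 3. In MV_PEEP against MV, 4 of 9 fast-fibre and 5 of 7 slow-fibre genes were below 0, and 1 and 3 without that library. The slow and fast heavy chain symbols MYH7 and MYH2 had no row of that name and were not analysed here.

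**Figure D5:**
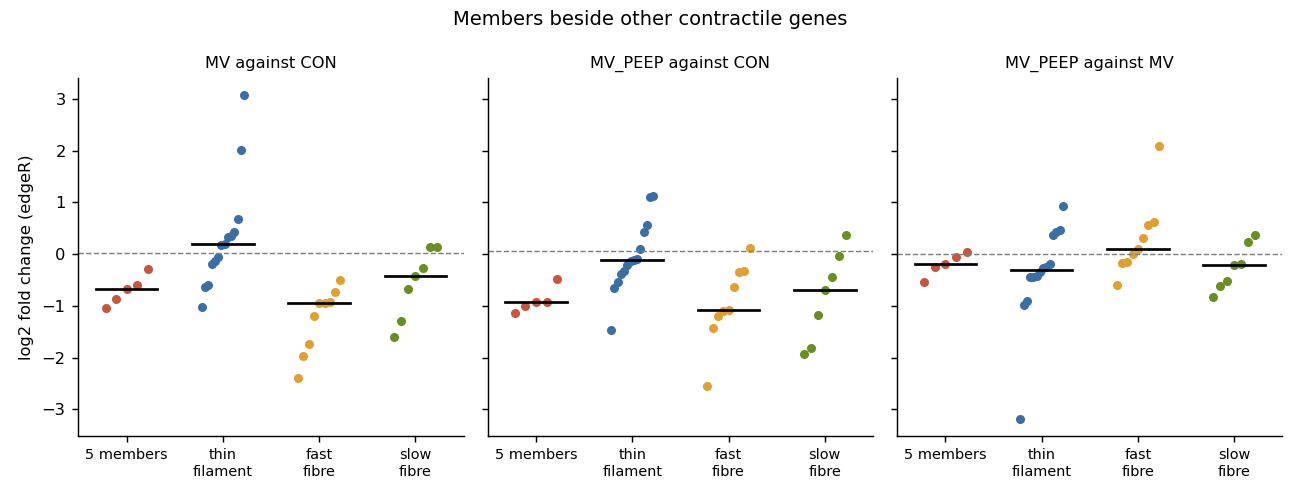
Log2 fold changes from edgeR of the 5 named genes, 14 thin filament genes, 9 fast-fibre genes and 7 slow-fibre genes in 3 comparisons. Points are genes, solid bars list medians and the dashed line the median of all genes tested. Against CON, the medians of the 5 named genes (−0.67 in MV, −0.92 in MV_PEEP), the fast-fibre genes (−0.94 and −1.08) and the slow-fibre genes (−0.42 and −0.68) lie below 0. The thin filament median (0.20 and −0.12) is nearest to the dashed line.

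Of 4 tested developmental contractile genes, 3 were above 0 in MV against CON (median 0.47) and 1 in MV_PEEP against CON (median −0.38). Embryonic heavy chain MYH3 gave −2.49, the atrial and embryonic light chain MYL4 0.61 and cardiac troponin T TNNT2 0.34 in MV against CON (edgeR adjusted p = 0.718, 0.948 and 0.962). MYL4 had 2.58, 1.55 and 25.7 FPKM in MV, against 5.76, 5.57 and 9.69 FPKM in CON, so its mean was higher through MV replicate 3 while the other MV libraries lay below all of CON. TNNT2 was −0.32 without MV replicate 2, and ACTC1 was high in MV replicate 2, as given above. TNNT2 had 5.91 to 17.3 FPKM in MV_PEEP, 10.1 to 32.5 FPKM in MV and 3.54 to 20.1 FPKM in CON, far below the row named TNNT1. TPM4, the tropomyosin of non-muscle cells, had 19.8, 31.1 and 143 FPKM in MV_PEEP, with the high value in MV_PEEP replicate 3, against 14.7 to 34.3 FPKM in MV and 10.2 to 32.2 FPKM in CON.

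The 5 genes did not vary together as a single set. Across the 9 libraries, on log2(FPKM + 1), Pearson's r was 0.88 between the row named TNNT1 and TPM1, 0.88 between that row and TPM2, and 0.82 between TPM1 and TPM2. It was 0.57 between TNNC1 and TNNI1 and 0.14 between TNNI1 and the row named TNNT1. These correlations are descriptions over libraries that share depth, composition and group. The mean of the 3 rows with slow troponin names was followed most closely by TM7SF2 (r = 0.98), RCAN2 (0.97), FKBP3 (0.97), HRASLS (0.96) and CCDC107 (0.96). Picked as the highest among all genes tested, over only 9 libraries, these r values are high in part by selection. The 3 rows include the row named TNNT1, whose gene ID is that of TNNT3. Myosin light chains were chosen for comparison after values had been seen. TNNC1 had r = 0.91 with slow MYL2 and 0.75 with slow MYL3, against 0.66 with fast MYLPF and 0.57 with fast MYL1. TNNI1 had 0.69 with MYL2 and 0.90 with MYL3, against 0.42 with MYLPF and 0.01 with MYL1. The row named TNNT1 had r = 0.93 with MYL1 and 0.85 with fast MYLPF, against 0.50 with MYL2 and 0.37 with MYL3. TPM1 had 0.96 with MYLPF and 0.85 with MYL1, against 0.57 with MYL2 and 0.56 with MYL3. TPM2 had 0.87, 0.85, 0.53 and 0.40 in the same order.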

How the data were processed

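Poly(A)-selected, strand-marked RNA libraries of rabbit diaphragm were sequenced, and groups were taken from the labels. According to the submitters' processing notes, reads were trimmed with cutadapt 1.9 and aligned with HISAT2 2.0.4 to OryCun2.0, and StringTie 1.3.4d was named. The annotation release, the counting program and its use of strand are not given in the sources used here. The authors deposited whole-number counts per gene and FPKM, both unpooled. Of the low counts from 1 to 12, 54.3% were multiples of 4, so counting noise may be larger than the counts imply.

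The 12981 genes whose mean FPKM reached 0.5 were tested on the deposited counts with edgeR 4.0.16 (R 4.3.3; TMM, quasi-likelihood F test, 9 libraries, 1 mean per group). Alternatives used DESeq2 1.42.0, limma 3.58.1, other filters and scalings, counts divided by 4, a replicate block and leaving out each library. Exact permutation tests used scipy 1.17.1. Scripts were tested on simulated data. Levels and ratios used deposited FPKM, which depend on the gene model's length. Tropomyosin genes are near-identical in part, so reads may have been divided between them. Of the table's IDs, 20171 matched the RefSeq gene table, which gave 764 rows a symbol used for the other genes but not for choosing the 5.

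The genes and lists were chosen with earlier results of these data known. Named from each list were the 4 genes with the smallest p in MV against CON, plus ACTA1, NEB and the myosin heavy chains. Also named were the 5 genes most like the mean of the 3 rows with slow troponin names. Other marker sums were 150 to 283 FPKM in MV_PEEP, 30.5 to 1026 in MV and 2.96 to 19.1 in CON for neutrophils, and at most 2.33 for hepatocytes. The endothelial sum was highest in MV_PEEP replicate 3 (245 FPKM), as was the 1 mesothelial marker with a row (22.1 FPKM).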

Additional observations from a re-analysis of the deposited data

How the results depend on the processing

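All 190 log2 fold changes of the 5 named genes against CON, over every alternative run, stayed below 0, and none had an adjusted p under 0.527. These runs refit the same 9 libraries, so they are not separate evidence. Leaving out a library of the group not compared hardly moves a value. The number of genes called in MV against CON, MV_PEEP against CON and MV_PEEP against MV was 0 in each, and with DESeq2 154, 98 and 15, with limma on log2(FPKM + 1) 2, 2 and 1, and with limma on log2(FPKM + 0.1) 2, 2 and 0. As each library was left out in turn it ranged from 0 to 0, from 0 to 1 (1 without CON replicate 3) and from 0 to 1 (1 without MV replicate 1). DESeq2 gave unadjusted p values of 0.0398 for TNNC1 in MV_PEEP against CON (adjusted p = 0.585) and 0.0499 for TNNI1 in MV against CON (adjusted p = 0.549).

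Signs turned in MV_PEEP against MV for TPM1 (0.10 with library totals, −0.32 to 0.39 as each library was left out), TNNI1 (−0.46 to 0.34), the row named TNNT1 (−0.94 to 0.23) and TPM2 (−0.56 to 0.25). For TPM3 by gene ID the ranges were −0.51 to 0.089 in MV against CON, −0.57 to 0.031 in MV_PEEP against CON and −0.24 to 0.044 in MV_PEEP against MV. Limma gave it 0.021 in MV_PEEP against CON and 0.17 in MV_PEEP against MV, with either pseudocount, and library totals gave 0.11 in the last comparison. Library totals moved the median of all genes to 0.13, 0.42 and 0.25 in the 3 comparisons. The log2 ratio of TPM1 over TPM3 by gene ID ranged from −1.10 to −0.31 in MV minus CON, from −1.30 to −0.29 in MV_PEEP minus CON and from −0.54 to 0.35 in MV_PEEP minus MV. The cause of these turns was not tested.

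With the replicate number as a block, TNNI1 in MV_PEEP against MV was −0.16 in place of 0.05, and no other sign of the 5 named genes changed. Libraries with the same number had correlations of −0.28 to 0.36, and only 2 of the 9 correlated best with a library of their own number. They were therefore treated as unpaired.

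The planned ratios of fast over slow troponins, and the genes most like the fast troponins, were not run, because TNNC2, TNNI2 and TNNT3 had no row of that name. Counting the lists in the fit that leaves out MV_PEEP replicate 3 was chosen after seeing the data.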
